A study of Mus musculus with 16 samples.

Results

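Igfbp4, Trib2, Ide and Zfp281 are 4 of the 55450 genes counted in CD4+ and CD8+ tumor-infiltrating lymphocytes (TILs) of wild-type (WT) and Sirt2-/- mice. They were chosen by their measured values: in each of them all 4 Sirt2-/- CD4+ libraries lay above all 4 WT CD4+ libraries. Their genotype difference in CD4+ TILs is therefore given as a description without a test. The CD8+ libraries were not used to choose them and are tested. The mean level of each cell type over both genotypes is also tested, although its CD4+ part comes from the libraries of the choice.

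TILs were isolated from s.c. tumors of B16F10, a melanoma line of C57BL/6 origin, grown in WT C57BL/6J mice or in Sirt2-/- mice of the B6.129-Sirt2tm1.1Fwa/J strain, which lack SIRT2 in every cell and not in T cells alone. The labels name no further treatment. The groups were Sirt2-/- CD4+, WT CD4+, Sirt2-/- CD8+ and WT CD8+ TILs with 4 libraries each, 16 in all. The study's methods give n = 4 per group. Neither the methods nor the labels say whether CD4+ and CD8+ libraries of the same number came from the same mouse, nor whether mice were pooled. Stranded total RNA libraries made from 1 ng of RNA held 28000949 to 62407851 counts on genes. Levels are given as CPM, counts scaled to a common library total, after TMM normalization over the 16 libraries, a scaling that evens out differences in composition between libraries.

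IGFBP4 is a secreted protein that binds insulin-like growth factors and limits their access to the receptor, and its transcript is commonly found in naive T cells. TRIB2 is a pseudokinase of the Tribbles family that acts as a scaffold for the ubiquitin ligase COP1, with C/EBP factors as substrates. IDE is a zinc metalloprotease of the M16 family that degrades insulin, amyloid-β and other short peptides, and ZFP281 is a zinc-finger transcription factor that binds GC-rich DNA and can recruit the NuRD deacetylase complex. SIRT2, the protein missing in the mutant, is an NAD+-dependent deacetylase found mainly in the cytoplasm.

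On GRCm38, the build of the count table's gene identifiers, Igfbp4 (ENSMUSG00000017493.12) lies on the plus strand at chr11:99041244-99054392. Trib2 (ENSMUSG00000020601.8) lies on the minus strand at chr12:15791727-15816922. Ide (ENSMUSG00000056999.15) lies on the minus strand at chr19:37268743-37337852, and Zfp281 (ENSMUSG00000041483.14) on the plus strand at chr1:136624901-136630053. They share no chromosome with each other or with Sirt2 on chromosome 7. The gene span of Trib2 contains the microRNA gene Mir6387, with 0 to 33 counts, and that of Ide contains the pseudogene Rpl10-ps6 on the same strand, with 146 to 2091 counts. Counts of the members themselves ran from 477 to 11658 for Trib2, from 574 to 6509 for Igfbp4, from 2277 to 16969 for Zfp281 and from 2545 to 12723 for Ide, so no library was near the limit of detection.

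Because the members were picked for 1 shared pattern, the 300 bases around each start site are shown for the 3 whose RefSeq window covers the start of the GRCm38 gene model. The windows are from RefSeq on GRCm38.p6 at chr11:99040994-99041293 (plus strand, Igfbp4), chr12:15816736-15817035 (minus strand, Trib2) and chr1:136624651-136624950 (plus strand, Zfp281), and each is written in the direction of transcription. Capitals mark matches, on either strand, to the GC box (GGGCGG), the CCAAT box, the TATA box (TATAAA) and the motif GGGGAGGGG, the last being of the G-rich kind that ZFP281 and related factors bind.
Igfbp4: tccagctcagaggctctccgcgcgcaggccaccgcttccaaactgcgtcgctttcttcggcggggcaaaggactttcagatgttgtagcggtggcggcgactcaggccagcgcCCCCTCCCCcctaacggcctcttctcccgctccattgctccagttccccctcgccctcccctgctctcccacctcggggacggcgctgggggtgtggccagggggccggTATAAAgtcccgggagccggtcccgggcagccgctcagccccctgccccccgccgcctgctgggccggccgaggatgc
Trib2: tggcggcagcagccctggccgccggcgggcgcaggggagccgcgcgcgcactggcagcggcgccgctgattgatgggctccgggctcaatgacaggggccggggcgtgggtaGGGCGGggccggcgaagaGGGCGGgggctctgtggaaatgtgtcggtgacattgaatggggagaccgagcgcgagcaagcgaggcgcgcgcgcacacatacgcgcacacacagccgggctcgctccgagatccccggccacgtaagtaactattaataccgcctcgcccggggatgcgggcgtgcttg
Zfp281: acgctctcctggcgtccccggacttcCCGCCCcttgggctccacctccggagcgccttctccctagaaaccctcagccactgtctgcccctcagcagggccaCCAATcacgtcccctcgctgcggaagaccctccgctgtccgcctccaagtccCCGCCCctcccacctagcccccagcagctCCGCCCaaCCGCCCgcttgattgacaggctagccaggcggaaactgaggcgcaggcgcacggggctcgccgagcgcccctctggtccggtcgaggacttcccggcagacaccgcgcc

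The sequences have no motif that all 3 hold. Zfp281 has 4 GC boxes on the reverse strand and 1 CCAAT box. Trib2 has 2 GC boxes on the forward strand, and Igfbp4 has 1 TATA box and 1 GGGGAGGGG on the reverse strand, with no GC box. Of 32851 RefSeq windows of the same length, 35.7% hold the GC box, 37.4% the CCAAT box, 13.6% the TATA box and 6.37% GGGGAGGGG on either strand. Searches for CACGTG (held by 7.15% of windows), for TGTTTAC (3.65%), for CTTTGAA (5.14%) and for CCGGAAG (8.86%) gave no match in these 3 windows. All 3 are rich in CpG, with 27 in Igfbp4, 27 in Zfp281 and 40 in Trib2, against a median of 7 over all windows. The RefSeq window of Ide, chr19:37334495-37334794, has 0 CpG and 1 CCAAT box on the reverse strand, and lies within the gene model's span, so it is not shown. These matches are descriptions of letters, and binding was not measured.

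Sirt2 (ENSMUSG00000015149.14), the targeted gene, matched the labels. It measured 12.2, 10.2, 10.6 and 0 CPM in Sirt2-/- CD4+ replicates 1 to 4, against 40.7 to 75.6 CPM in WT CD4+ TILs, and 6.53 to 10.3 CPM in Sirt2-/- against 33.4 to 51.5 CPM in WT CD8+ TILs. There were 3 libraries that stood apart by the number of genes with at least 1 count: 8169 in replicate 4 of Sirt2-/- CD4+ TILs, with 12587 in replicate 1 of WT CD4+ TILs and 14411 in replicate 1 of WT CD8+ TILs, against 17730 to 22138 elsewhere. The members' log2 fold changes between genotypes without these 3 sparse libraries are given beside the results. Cd4 and Cd8a followed the labelled cell types, with Cd4 at 384 to 620 CPM in CD4+ TILs and at most 4.93 CPM in CD8+ TILs, and Cd8a at 1003 to 1261 CPM in CD8+ TILs and at most 33.4 CPM in CD4+ TILs.

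Transcripts of sex-linked genes moved with genotype. The study's methods describe WT and Sirt2-/- mice as matched for age and sex, but the Y-linked genes Ddx3y, Eif2s3y, Kdm5d and Uty, chosen after their values were seen, summed to at most 0.452 CPM in the Sirt2-/- libraries. In WT replicates 1 to 4 they summed to 59.0, 297.2, 10.03 and 10.2 CPM in CD4+ and to 57.9, 270.6, 15.4 and 6.26 CPM in CD8+ TILs. Xist, the RNA of the inactive X chromosome, was at 67.4 and 61.7 CPM in WT replicate 2 of the 2 cell types and at 443 to 1297 CPM elsewhere. The part of sex in the members' levels was not tested. Without WT replicate 2, the log2 fold changes between genotypes were 1.62 for Igfbp4, 0.79 for Trib2, 0.9996 for Ide and 0.87 for Zfp281 in CD4+ TILs, and 0.34 for Igfbp4, 0.64 for Trib2, 0.49 for Ide and 0.35 for Zfp281 in CD8+ TILs.

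Igfbp4 had the widest gap between genotypes in CD4+ TILs of the 4 genes. It measured 84.8, 74.1, 67.6 and 83.7 CPM in Sirt2-/- CD4+ replicates 1 to 4 and 29.0, 12.5, 25.8 and 21.1 CPM in WT CD4+ replicates 1 to 4. The lowest Sirt2-/- library was 2.33 times the highest WT library, and the fitted log2 fold change was 1.82 (SE 0.31, n = 4 per genotype), a 3.52-fold difference. In CD8+ TILs it measured 132.4, 115.1, 84.0 and 49.4 CPM in Sirt2-/- replicates and 92.3, 66.8, 74.1 and 61.0 CPM in WT replicates. These groups overlapped, and Sirt2-/- CD8+ replicate 4 was the lowest of all 8 CD8+ libraries. The WT CD4+ group was thus the low one of the 4 groups, with a mean of 22.1 ± 7.16 CPM (SD, n = 4). The other 3 means were 73.5 ± 13.6 in WT CD8+, 77.5 ± 8.18 in Sirt2-/- CD4+ and 95.2 ± 36.5 CPM in Sirt2-/- CD8+ TILs (SD, n = 4 each), and their ranges overlapped.

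Trib2 was set first by cell type and then by genotype. It measured 195.9, 163.1, 154.4 and 208.7 CPM in Sirt2-/- CD4+ replicates 1 to 4 and 67.7, 84.4, 119.4 and 125.6 CPM in WT CD4+ replicates. In CD4+ TILs the log2 fold change was 0.86 (SE 0.24, n = 4 per genotype), with the lowest Sirt2-/- library 1.23 times the highest WT library. In CD8+ TILs it measured 53.0, 31.4, 30.9 and 36.1 CPM in Sirt2-/- and 14.4, 24.5, 30.7 and 28.1 CPM in WT replicates. Every Sirt2-/- CD8+ library lay above every WT CD8+ library, but the margin was 30.9 against 30.7 CPM and the groups overlapped under each of 3 other normalizations. The means ran in the order WT CD8+ (24.4 ± 7.13), Sirt2-/- CD8+ (37.9 ± 10.3), WT CD4+ (99.3 ± 27.8) and Sirt2-/- CD4+ (180.5 ± 26.0 CPM, SD, n = 4 each).

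Ide had the same order of genotypes in both cell types at a higher level in CD8+ TILs. It measured 145.6, 168.7, 154.9 and 227.8 CPM in Sirt2-/- CD4+ and 84.6, 101.1, 107.2 and 69.7 CPM in WT CD4+ replicates 1 to 4. The log2 fold change in CD4+ TILs was 0.94 (SE 0.21, n = 4 per genotype), and the lowest Sirt2-/- library was 1.36 times the highest WT library. In CD8+ TILs it measured 203.5, 179.4, 257.0 and 228.6 CPM in Sirt2-/- and 156.1, 132.7, 183.4 and 126.7 CPM in WT replicates. A single pair of libraries overlapped there, since WT replicate 3 exceeded Sirt2-/- replicate 2. In order of level, WT CD4+ TILs (90.7 ± 16.9 CPM) lay below every WT CD8+ library (149.7 ± 25.8), whereas Sirt2-/- CD4+ TILs (174.3 ± 36.9) overlapped both WT CD8+ and Sirt2-/- CD8+ TILs (217.1 ± 33.4 CPM, SD, n = 4 each).

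Zfp281 was highest in Sirt2-/- CD4+ TILs, at 168.9, 224.3, 179.9 and 303.8 CPM in replicates 1 to 4, against 99.2, 129.3, 124.9 and 134.4 CPM in WT CD4+ replicates. Its log2 fold change in CD4+ TILs was 0.84 (SE 0.21, n = 4 per genotype), and the lowest Sirt2-/- library was 1.26 times the highest WT library. The highest value belonged to Sirt2-/- CD4+ replicate 4, the library with the fewest genes detected. In CD8+ TILs Zfp281 measured 107.9, 81.8, 68.6 and 94.4 CPM in Sirt2-/- and 74.0, 60.4, 70.4 and 64.3 CPM in WT replicates. The ranges overlapped, since Sirt2-/- replicate 3 lay below WT replicates 1 and 3. The means were 67.3 ± 6.12 in WT CD8+, 88.2 ± 16.9 in Sirt2-/- CD8+, 122.0 ± 15.7 in WT CD4+ and 219.2 ± 61.3 CPM in Sirt2-/- CD4+ TILs (SD, n = 4 each), and neighbouring groups overlapped except for the uppermost pair.

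**Figure D1:**
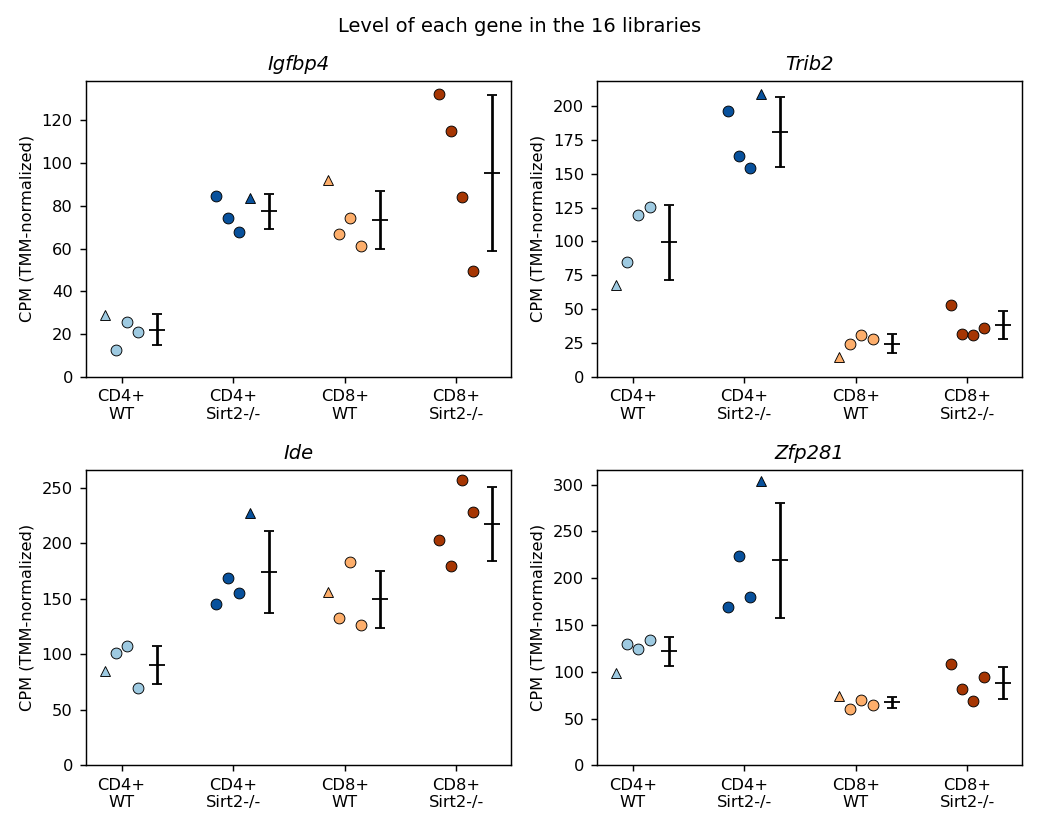
Level of Igfbp4, Trib2, Ide and Zfp281 in each of the 16 libraries (y axis, CPM after TMM normalization, linear from 0), by group (x axis), with bars for the mean ± SD of 4 libraries and triangles for the 3 sparse libraries. Igfbp4 is low in WT CD4+ TILs at 12.5 to 29.0 CPM, and all 8 CD4+ libraries of Trib2, from 67.7 CPM, lie above all 8 CD8+ libraries, up to 53.0 CPM.

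The choice rested on a pattern that 198 of the 15070 genes tested in CD4+ TILs showed, 1.31% of them. By the ratio of the lowest Sirt2-/- to the highest WT level in CD4+ TILs, Igfbp4 was number 5 of these genes, Ide number 17, Zfp281 number 31 and Trib2 number 37. By log2 fold change they were numbers 27, 69, 79 and 78. The gene just inside the pattern was Taf7, at 38.69 against 38.66 CPM, and the gene just outside was Rngtt, at 61.20 against 61.25 CPM. No gene of CD4+ TILs (0% of 15070) passed an adjusted p of 0.05 in edgeR's quasi-likelihood test, in which 190 had an unadjusted p under 0.05, whereas DESeq2 called 7 genes and limma-voom 4. With these sparse libraries left out, the log2 fold changes in CD4+ TILs were 1.93 for Igfbp4, 0.76 for Ide, 0.64 for Trib2 and 0.56 for Zfp281. Since RNA was measured in bulk, a larger share of cells that express a gene and more RNA per cell cannot be told apart.

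The CD8+ libraries, which had no part in the choice, were then compared between genotypes. They may not be independent of it. WT CD4+ and CD8+ libraries of the same number had similar levels of Y-linked genes. With each gene's group mean subtracted, 8 of 8 of these libraries correlated best with their own number. If they came from the same mice, differences between mice that entered the choice could recur here, which was not tested. All 4 genes had a positive log2 fold change there, as did 51.9% of the 15302 genes tested, and none passed at an adjusted p of 0.05 in edgeR's quasi-likelihood test, DESeq2 or limma-voom. For Ide the log2 fold change was 0.53 (SE 0.15), a 1.45-fold difference, with an unadjusted p of 0.00375 and an adjusted p of 0.99 (edgeR, n = 4 per genotype). For Trib2 it was 0.63 (SE 0.24, edgeR unadjusted p = 0.0243), for Zfp281 0.39 (SE 0.14, edgeR unadjusted p = 0.0189) and for Igfbp4 0.37 (SE 0.26, edgeR unadjusted p = 0.177), each with an adjusted p of 0.99. Thus 3 of the 4 genes had a higher level in Sirt2-/- CD8+ TILs at an unadjusted p under 0.05, against 334 genes or 2.18% of those tested. By p, Ide was number 42 of the 15302 genes, Zfp281 number 203, Trib2 number 293 and Igfbp4 number 2439.

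Only Sirt2 passed the test in CD8+ TILs (0.00654% of 15302 genes), with a log2 fold change of -2.22 (SE 0.21, edgeR adjusted p = 0.00663). Separation of every Sirt2-/- from every WT library occurred in 266 genes (1.74%) in CD8+ TILs, and Trib2 was the member among them. Leaving out each CD8+ library in turn gave log2 fold changes of 0.46 to 0.66 for Ide, 0.44 to 0.77 for Trib2, 0.29 to 0.51 for Zfp281 and 0.18 to 0.58 for Igfbp4. Over DESeq2, limma-voom, other normalizations and filters the lowest adjusted p of a member was 0.179, for Ide with DESeq2. Without WT CD8+ replicate 1, the sparse library, the log2 fold changes were 0.56, 0.45, 0.45 and 0.51.

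Set side by side, the log2 fold changes between genotypes in CD4+ and CD8+ TILs were 1.82 and 0.37 for Igfbp4, 0.94 and 0.53 for Ide, 0.86 and 0.63 for Trib2, and 0.84 and 0.39 for Zfp281. The difference between the cell types was not tested, because it contains the CD4+ values by which the genes were chosen. Of the 197 genes separated in CD4+ TILs and also tested in CD8+ TILs, 164 (83.2%) had a log2 fold change above 0 in CD8+ TILs, with a median of 0.18 against 0.01 over all genes. Of them, 14 (7.11%) were also separated in CD8+ TILs. The direction of the 4 members in CD8+ TILs was thus shared with most genes of that set.

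**Figure D2:**
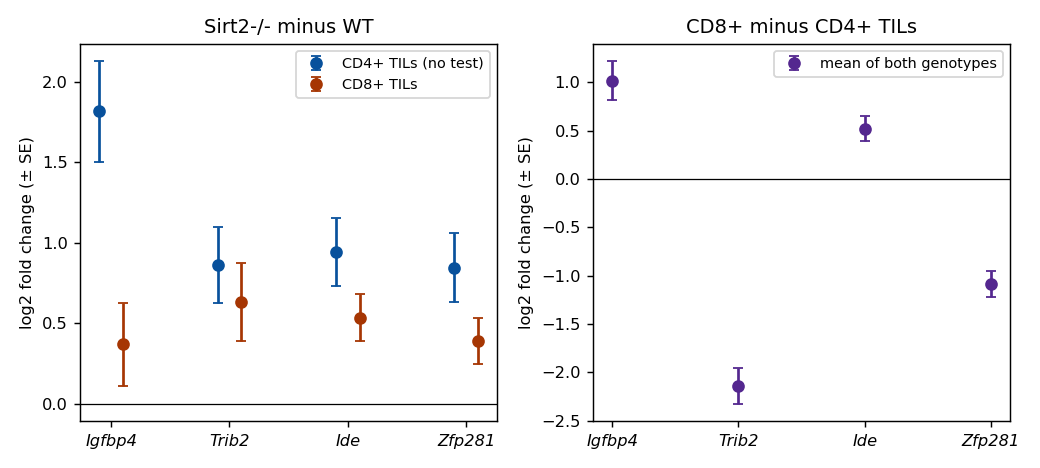
Log2 fold change (y axis) with its SE for each of the 4 genes (x axis), between Sirt2-/- and WT TILs of each cell type (left) and between CD8+ and CD4+ TILs as the mean of both genotypes (right). In CD8+ TILs the genotype differences lie between 0.37 and 0.63, whereas the cell type differences run from -2.14 for Trib2 to 1.02 for Igfbp4.

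The cell types were then compared over both genotypes, a contrast in which the genotype difference of CD4+ TILs cancels. It still holds the CD4+ libraries used for the choice, and that choice can favour genes with a small spread within those groups. The p-values of this contrast are thus not free of the choice. All 4 genes passed the test, Trib2 and Zfp281 being lower and Igfbp4 and Ide higher in CD8+ than in CD4+ TILs. For Trib2 the log2 fold change was -2.14 (SE 0.19, edgeR adjusted p = 6.32e-07), so that CD8+ TILs held 0.227 times the CD4+ level. For Zfp281 it was -1.09 (SE 0.14, edgeR adjusted p = 3.08e-05), or 0.471 times the CD4+ level. Igfbp4 was 2.02-fold higher in CD8+ TILs (log2 fold change 1.02, SE 0.20, edgeR adjusted p = 0.00256), a call that was lost with the replicate number as a block (log2 fold change 1.01, adjusted p = 0.0684). Ide was 1.43-fold higher (log2 fold change 0.52, SE 0.13, edgeR adjusted p = 0.0129), a call that was lost with upper-quartile normalization (log2 fold change 0.44, adjusted p = 0.0503).

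Among the 17270 genes tested, 984 (5.7%) were lower and 975 (5.65%) higher in CD8+ than in CD4+ TILs at an adjusted p under 0.05. Complete separation was rarer, with 422 genes (2.44%) above in every CD4+ library and 858 (4.97%) above in every CD8+ library. Trib2 was among the first of these, at 67.7 CPM in its lowest CD4+ and 53.0 CPM in its highest CD8+ library. Zfp281 missed it by 1 pair, with 99.2 CPM in WT CD4+ replicate 1 and 107.9 CPM in Sirt2-/- CD8+ replicate 1, and was separated with the size factors of DESeq2 and with library totals. For Igfbp4 and Ide the WT groups of the cell types did not overlap, whereas the Sirt2-/- groups did: Igfbp4 measured 67.6 to 84.8 CPM in CD4+ and 49.4 to 132.4 CPM in CD8+ TILs of Sirt2-/- mice, and Ide 145.6 to 227.8 and 179.4 to 257.0 CPM. These values were not tested by genotype, since the WT and Sirt2-/- CD4+ libraries served to choose the genes. A rule that asks for Sirt2-/- CD4+ above WT CD4+ levels can itself favour such a contrast. The share of all genes that show it was not determined.

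Levels of different genes were compared per kilobase of exon. In WT CD4+ TILs, Zfp281 at 24.7 and Trib2 at 22.9 CPM per kb were the highest of the 4, followed by Ide at 12.1 and Igfbp4 at 5.0. In Sirt2-/- CD4+ TILs the same order was found, at 44.4, 41.6, 23.2 and 17.6 CPM per kb. CD8+ TILs had Ide first, at 19.9 in WT and 28.9 CPM per kb in Sirt2-/- TILs, then Igfbp4 at 16.7 and 21.6, Zfp281 at 13.6 and 17.9 and Trib2 at 5.64 and 8.74. The gene with the highest level in CD8+ TILs was thus below both Zfp281 and Trib2 in CD4+ TILs, and Trib2 was the lowest in CD8+ TILs.

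**Figure D3:**
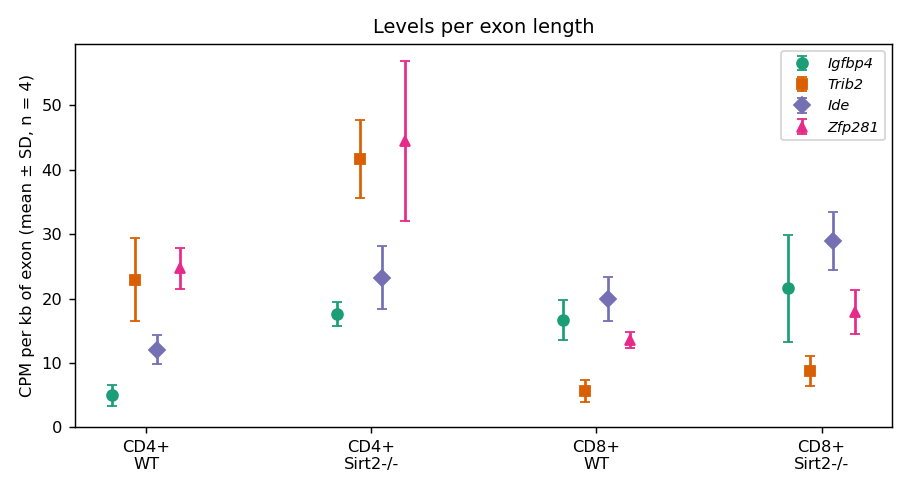
Mean ± SD of 4 libraries of the level per exon length (y axis, CPM per kb of exon) of each gene in the 4 groups (x axis). Trib2 and Zfp281 are the uppermost genes in both CD4+ groups, at 22.9 to 44.4 CPM per kb, and Ide is the uppermost in both CD8+ groups, at 19.9 and 28.9.

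Over the 16 libraries, the genes whose log2 levels ran most like each member were sought among 11085 genes whose mean count reached 100. These correlations describe libraries that share cell type, genotype and depth. Trib2 ran most like Gbp3 (Spearman's rho 0.98, n = 16 libraries), a guanylate-binding GTPase induced by interferon, then Ecm1 (0.96), a secreted matrix protein, and Gbp7 (0.96). Each of these was lower in CD8+ than in CD4+ TILs, as Trib2 was. Gbp3 averaged 507 CPM in Sirt2-/- CD4+, 334 in WT CD4+, 203 in Sirt2-/- CD8+ and 120 CPM in WT CD8+ TILs, the same order of groups as Trib2. Likeness over these same libraries is what the neighbours were picked by, so a shared order is no separate result. Zfp281 ran most like Gpr146 (0.96), an orphan G-protein-coupled receptor, then Trib2 itself (0.95) and Irs2 (0.94), an adaptor of the insulin and IGF receptors.

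Ide ran most like Btaf1 (0.91), an ATPase that removes TATA-binding protein from DNA, Adamts14 (0.87), a procollagen protease, and Slc30a4 (0.86), a zinc transporter. Btaf1 averaged 158 CPM in Sirt2-/- and 106 CPM in WT CD4+ TILs, and 166 against 140 CPM in CD8+ TILs. Adamts14 was near 0 in WT CD4+ TILs, at 0.369 CPM, against 19.2 CPM in Sirt2-/- CD4+, 19.1 in Sirt2-/- CD8+ and 12.3 CPM in WT CD8+ TILs. Igfbp4 had looser neighbours, namely Mdp1 (0.82), a phosphatase, Cnot8 (0.80), a subunit of the CCR4-NOT deadenylase, and Zfp358 (0.76). Mdp1 averaged 55.7 CPM in Sirt2-/- CD4+ TILs and 27.5 in WT CD4+, against 37.9 and 36.8 CPM in CD8+ TILs. With Pearson's correlation 3 of these 12 neighbours remained, and with the 3 sparse libraries left out 2 of 12.

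For the pathway of each member, a list of related genes was examined, with the members left out. Of the IGF axis, 9 of 21 genes had enough counts to be tested in CD4+ TILs and between cell types. In the contrast of cell types Igf2r, the receptor that clears IGF2, was higher in CD8+ TILs (log2 fold change 1.14), and Igf1r, the signaling receptor, was lower (-2.70), as were Irs2 (-1.58) and the insulin receptor Insr (-1.18). Each of these 4 calls held in all 16 fits that left out 1 library. The median of the list was -1.18, against 0.10 over all genes, but it turned with the genes that could be tested, from -1.07 to 0.87 when 1 library was left out. Igf1r averaged 97.4 and 79.9 CPM in Sirt2-/- and WT CD4+ TILs and 14.4 and 12.7 CPM in CD8+ TILs. Igfbp4 had the highest level per exon length of the binding proteins in each group. Igfbp7 averaged 1.58 to 3.38 CPM per kb, Igfbp2, Igfbp3, Igfbp5 and Igfbp6 at most 0.313 CPM in any group, and Igfbp1 had no count in any library.

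Between genotypes, none of the IGF axis genes passed edgeR's quasi-likelihood test, DESeq2 or limma-voom in either cell type. At an unadjusted p under 0.05 there were 0 of 9 in CD4+ TILs and 1 of 8, Stc2, lower, in CD8+ TILs. Of all 15302 genes tested in CD8+ TILs, 245 were lower at that p. In CD4+ TILs 8 of 9 had a log2 fold change above 0 (median 0.34), against 6328 of 15070 genes overall (median -0.11). In CD8+ TILs 5 of 8 did (median 0.10), against 7946 of 15302 genes overall (median 0.01).

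The paralogs of Trib2 had values of the other order in CD4+ TILs. Trib1 averaged 19.9 ± 9.73 CPM in Sirt2-/- and 29.6 ± 3.73 CPM in WT CD4+ TILs (SD, n = 4 each), and Trib3 5.24 ± 3.52 and 7.69 ± 5.03 CPM, both means being lower without Sirt2. In CD8+ TILs Trib1 averaged 4.20 in Sirt2-/- and 3.54 CPM in WT, and Trib3 2.02 and 3.24 CPM. Trib1 was lower in CD8+ than in CD4+ TILs (log2 fold change -2.65), as Trib2 was. In that contrast 5 of the 13 genes of the Tribbles list passed the test as lower, beside 5.7% of all genes tested. Among the 5 were Trib1 and Cebpb (-1.32), a TRIB substrate family member. Akt1 passed as higher (0.48), as did 5.65% of all genes tested. With 1 library left out the calls of Cebpb and Akt1 (adjusted p = 0.040 and 0.032) held in 4 and 7 of 16 fits, and that of Trib1 in 16.

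Between genotypes no gene of the Tribbles list passed with any of the 3 tools. At an unadjusted p under 0.05 there was 1 of 12, Akt2, in CD4+ TILs and 1 of 13, Cebpb, in CD8+ TILs, both higher in Sirt2-/-. Of all genes tested, 150 of 15070 in CD4+ and 334 of 15302 in CD8+ TILs were higher at that p. The medians of the list were -0.10 and -0.02.

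The M16 proteases other than Ide had medians of -0.17 in CD4+ and -0.05 in CD8+ TILs between genotypes, with 2 of 6 and 1 of 6 above 0, and none passed with the 3 tools. At an unadjusted p under 0.05 there were 0 of 6 in CD4+ TILs and 1 of 6, Pitrm1, lower, in CD8+ TILs, where 245 of all 15302 genes were lower. Nrd1, encoding nardilysin, the closest relative of IDE in the list, averaged 298 ± 155 CPM in Sirt2-/- and 240 ± 7.57 CPM in WT CD4+ TILs, and 200 ± 10.5 and 209 ± 8.32 CPM in CD8+ TILs (SD, n = 4 each). Its Sirt2-/- CD4+ libraries ran from 198 to 529 CPM, on both sides of its WT CD4+ libraries at 230 to 247 CPM. Between cell types Pmpca, a subunit of the mitochondrial processing peptidase, passed as higher in CD8+ TILs (0.61).

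Zfp148, the closest relative of Zfp281, averaged 175 ± 13.4 CPM in Sirt2-/- and 167 ± 6.01 CPM in WT CD4+ TILs, and 138 ± 10.9 and 149 ± 9.62 CPM in CD8+ TILs (SD, n = 4 each). It was lower in CD8+ TILs (log2 fold change -0.25), as was the NuRD ATPase Chd3 (-1.13), but with 1 library left out the call of Zfp148 (adjusted p = 0.048) held in 5 of 16 fits and that of Chd3 in 16. Rbbp7 (0.84), Hdac2 (0.64), Gatad2a (0.61) and Hdac1 (0.54), subunits of the same complex, were higher in CD8+ TILs, opposite to Zfp281. Between genotypes the 14 genes of this list had medians of 0.01 in CD4+ and 0.00 in CD8+ TILs, with 7 of 14 above 0 in each. None passed with the 3 tools, and 0 of 14 had an unadjusted p under 0.05 in either cell type.

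Igfbp4 was also listed with 14 other genes of naive and stem-like T cells. In CD4+ TILs 13 of the 14 had a log2 fold change above 0 (median 0.31), against 6328 of 15070 genes overall (median -0.11). In CD8+ TILs 10 of 14 did (median 0.14), against 7946 of 15302 genes overall (median 0.01). Without Sirt2-/- replicate 1 the medians of the list were 0.013 in CD4+ and -0.11 in CD8+ TILs. None passed with the 3 tools. At an unadjusted p under 0.05 there were 3 of 14 in CD4+ TILs, among them the transcription factors Satb1 and Bach2, all higher in Sirt2-/-, beside 150 of all 15070 genes tested, and 0 of 14 in CD8+ TILs. Summed over the list with Igfbp4, Sirt2-/- CD4+ replicates measured 7045, 4093, 3560 and 2898 CPM and WT CD4+ libraries 2693 to 3685 CPM, so these groups overlapped. The groups of Igfbp4 itself were separate by the rule of its choice, so the list cannot be set against it. Between cell types Slamf6 (-1.54), Il7r (-1.54), S1pr1 (-0.86) and Bach2 (-0.72) passed as lower in CD8+ TILs, and Foxp1 (0.44, adjusted p = 0.044) as higher. The call of Foxp1 held in 4 of 16 fits that left out 1 library, and those of the other 4 in 16 of 16. Igfbp4 thus differed between cell types in the direction opposite to these 4 genes.

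**Figure D4:**
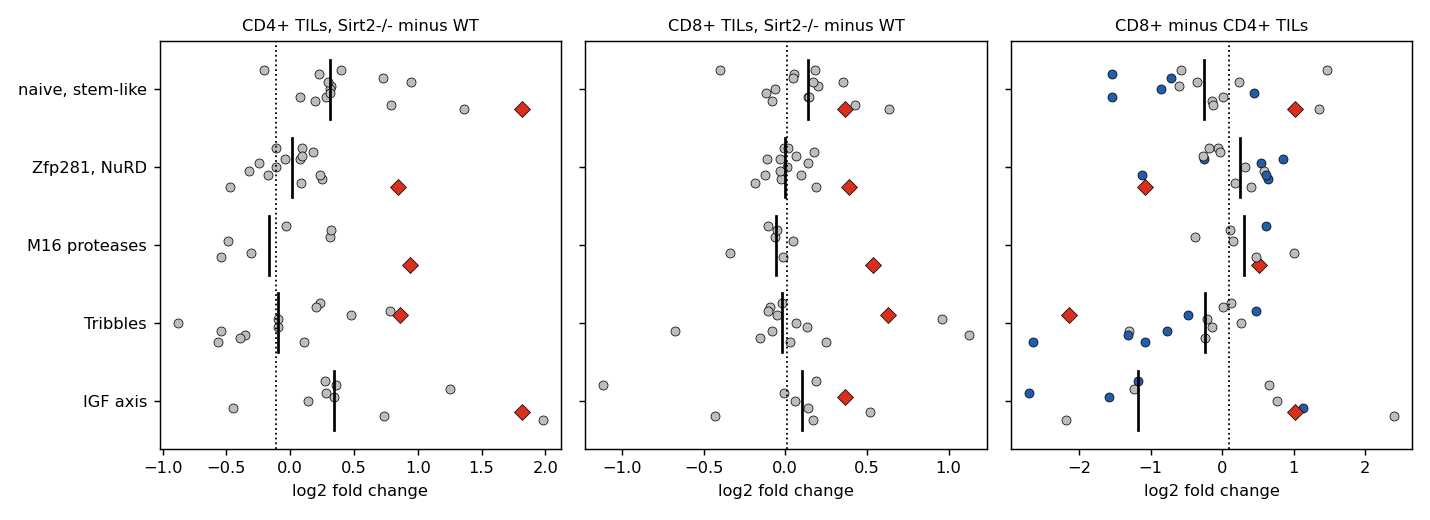
Log2 fold change (x axis) of each tested gene in the 5 lists (y axis) for the 3 contrasts; red diamonds are the 4 members, blue points passed the test, grey points did not, black bars are list medians without the members and dotted lines the median of all genes. In CD4+ TILs the list medians are 0.34 in the IGF axis and 0.31 in the naive list. Igfbp4 lies at 1.82 there, but it was chosen by this contrast.

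Summed markers of myeloid cells were higher in every Sirt2-/- than in every WT CD4+ library. Summed CPM of 12 myeloid markers was 19.3, 29.3, 50.8 and 149.3 in Sirt2-/- CD4+ replicates 1 to 4 against 14.4 to 17.9 in WT CD4+ TILs, and 14.6 to 50.9 against 10.3 to 15.1 in CD8+ TILs. Apoe alone gave 137.7 CPM of the sum in Sirt2-/- CD4+ replicate 4. In that sparse library only 3 of the 12 markers had a count. S100a8 and S100a9 were at 0 in all WT libraries and near 0 in Sirt2-/- libraries too, at most 0.061 and 0.51 CPM. Of the 7 markers tested 7 had a log2 fold change above 0 in each cell type. Of all genes tested, 6328 of 15070 did in CD4+ and 7946 of 15302 in CD8+ TILs. With edgeR 0 of 7 passed, 1 (CD4+) and 3 (CD8+) having an unadjusted p under 0.05. At that p 150 of all 15070 genes were higher in Sirt2-/- CD4+ and 334 of 15302 in Sirt2-/- CD8+ TILs. The 9 stromal markers summed to 64.5 to 182.2 CPM in Sirt2-/- and 95.02 to 116.4 CPM in WT CD4+ TILs, where Pdgfra and Dcn were at 0, and to 40.6 to 110.7 and 36.2 to 48.6 CPM in CD8+ TILs. In Sirt2-/- CD4+ TILs Pdgfra and Dcn were at most 0.284 and 1.18 CPM. The part of myeloid and stromal cells in the members' levels was not tested.

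Treg markers, which CD4+ TILs can hold, summed to 1435 to 2925 CPM in Sirt2-/- and 1896 to 3071 CPM in WT CD4+ TILs, so these ranges overlapped, and all 6 were lower in CD8+ TILs (median log2 fold change -2.72). The part of this difference in the cell type contrast of Trib2 and Zfp281 was not tested. Summed melanoma markers were 10.2 to 81.5 and 5.50 to 103.0 CPM in Sirt2-/- and WT CD4+ TILs, and at most 16.1 CPM in CD8+ TILs. B cell markers were 84.1 to 190.4 and 124.1 to 232.4 CPM in CD4+ TILs and 40.8 to 68.7 CPM in CD8+ TILs. Natural killer markers, which cytotoxic T cells share in part, were 15.7 to 87.8 CPM in CD4+ and 379 to 626 CPM in CD8+ TILs, and erythroid markers at most 9.31 CPM in any library.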

How the data were processed

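Total RNA of CD4+ and CD8+ TILs was sequenced from a strand-specific, rRNA-depleted kit for low input. The deposited table gives raw counts, whole reads assigned to each gene and not normalized by the authors. The submitters' processing notes name STAR, HTSeq and mm10; versions and the strand setting of the counting are not given in the sources used here. With no molecular identifiers, counts are not independent molecules.

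The members and all lists were chosen with earlier results of these data known. The main test was the two-sided quasi-likelihood test of edgeR 4.0.16 in R 4.3.3, with TMM, filterByExpr, robust dispersions, Benjamini-Hochberg adjustment over all genes tested and a threshold of 0.05, within each cell type or over all 16 libraries for the cell type contrast. SE is the log2 fold change divided by the root of the F statistic. Alternatives were DESeq2 1.42.0, limma-voom 3.58.1 with quality weights, other normalizations and filters, 1 model of all libraries, a replicate block, and leaving out libraries. How often single list genes stayed called with 1 library left out was added after seeing the data. The p-values set each difference against the spread between libraries, which the main tests treat as independent of each other. In the cell type contrast this includes CD4+ and CD8+ libraries of the same number.

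Genes named were the members, Sirt2, the 3 most similar genes of each member (Spearman's rho of log2 CPM, prior count 2), Taf7 and Rngtt at the edge of the pattern, close relatives, and up to 3 called genes a direction of each list. Exceptions, chosen after their values were seen, are the fourth called genes Hdac1 and Bach2, list genes with an unadjusted p under 0.05 (Stc2, Akt2, Cebpb, Pitrm1, Satb1), the marker Apoe, and marker genes at 0. Some list genes are not reported here. Exon lengths came from the GENCODE annotation on GRCm38, whose identifiers matched 100% of the table's. The functions were tested on simulated data. For changes of 1 and 2 on the log2 scale, 72% and 91% were recovered in CD8+ TILs (14712 genes), 2% and 26% in CD4+ TILs (13666 genes), and 20% and 56% between cell types (16514 genes).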

Additional observations from a re-analysis of the deposited data

Results flagged for a closer look

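In 8 of 52 groups of 4 libraries 1 library stood apart from the rest by Dixon's criterion, where chance gives 2.6. None of the 8 was a level of a member. For Sirt2 these were Sirt2-/- CD4+ replicate 4 at 0 CPM, WT CD4+ replicate 1 at 75.6 CPM and WT CD8+ replicate 1 at 51.5 CPM, the 3 libraries with few genes detected. Summed melanoma markers stood apart in Sirt2-/- CD4+ replicate 4 (81.5 CPM), WT CD4+ replicate 1 (103.0 CPM) and Sirt2-/- CD8+ replicate 4 (16.1 CPM). Natural killer markers stood apart in WT CD4+ replicate 2 (84.1 CPM) and erythroid markers in WT CD4+ replicate 1 (9.31 CPM).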

How the results depend on the processing

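The log2 fold changes of the 4 members kept their direction in every contrast and every alternative run, and their side of the threshold where tested, except that between cell types Ide had 0.44 (adjusted p = 0.0503) with upper-quartile normalization and Igfbp4 1.01 (adjusted p = 0.0684) with the replicate block. Over the other alternatives to edgeR's settings the adjusted p between cell types went down to 0.00057 for Ide and 0.000233 for Igfbp4. The counts of called genes moved more. In CD8+ TILs 1 gene was called between genotypes, against 28 with DESeq2, 4 with limma-voom, 5 without a filter, 4 with the replicate block, 7 without WT CD8+ replicate 1, and 0 to 7 leaving out 1 library (0 without Sirt2-/- replicate 1 or 4). In CD4+ TILs 0 were called, against 7 with DESeq2, 4 with limma-voom and 6 with the 3 sparse libraries left out. Between cell types 1959 were called, against 3094 with DESeq2, 7564 with limma-voom, 6776 with the 3 sparse libraries left out, and 1510 to 4534 leaving out 1 library, the last without Sirt2-/- CD4+ replicate 4. The cause was not tested. Of the list values, 552 of 610 counts and 247 of 305 medians stayed within their limits. The replicate block rests on shared numbers. Correlations were taken of log2 levels after each gene's mean in its group was subtracted. For same-numbered libraries they were -0.07 to 0.08 between genotypes in CD4+ and -0.06 to 0.03 in CD8+ TILs. Between cell types they were -0.01 to 0.13 in Sirt2-/- and 0.07 to 0.12 in WT, where 8 of 8 libraries correlated best with their own number. The block changed no other call of a member. The median of all genes moved by over 0.1 in some settings, by 0.21 between cell types with the block and by 0.14 in CD4+ TILs with at least 10 counts in every library.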
